A study of Mus musculus with 15 samples.

Results

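Glucocorticoid-induced genes were followed in mouse heart while the RNA-binding protein CELF2 was induced there. They were 9 genes known to respond to glucocorticoids and the receptor gene itself, chosen by name with earlier results of these data known. All 10 were found among the 16199 genes of the expression table. Of these, 9 were found under a listed symbol (Fam107a as BC055107) and Sgk1 was found by its gene record, under the older symbol Sgk. All 10 had a mean of at least 1 RPKM and entered the test, which covered 10557 genes. Glucocorticoids are steroid hormones (corticosterone in mice) that bind the glucocorticoid receptor, Nr3c1, which waits in the cytoplasm in a complex with heat shock chaperones. The bound receptor enters the nucleus, binds short palindromic response elements in DNA and raises transcription of a set of genes that many tissues share, while lowering its own mRNA in many cell types. Corticosterone secretion rises with stress and follows a daily rhythm, and in mouse heart the receptor acts in cardiomyocytes as well as in other cells.

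Poly(A)+ RNA from the ventricles, without atria and part of the apex, of 15 FVB mice aged 14 to 16 weeks was sequenced, 3 mice per group and every library from a separate animal. The induced groups, fed doxycycline for 12 h, 24 h, 72 h or 7 d, carried MHCrtTA, in which a cardiomyocyte myosin promoter drives a doxycycline-dependent activator, together with TRECUGBP2, a human CELF2 transgene under a tetracycline-responsive promoter. Control mice carried MHCrtTA alone and had received doxycycline for 72 h, so all groups shared the activator and the drug, the length of doxycycline differed from control at 12 h, 24 h and 7 d, and every comparison with control used the same 3 hearts. Food had been taken away 2 to 3 h before the doxycycline food (2 g/kg in the labels, while the study's supplement lists another dose for these animals) was given. The sources used here give neither corticosterone levels nor the time of day of harvest. The labels of the induced hearts also name a Celf1 cassette, against their own genotype and the study's description, while Celf2 mRNA averaged 123 ± 60.0 RPKM at 12 h, 150 ± 33.2 RPKM at 24 h, 230 ± 26.4 RPKM at 72 h, 324 ± 54.8 RPKM at 7 d and 9.82 ± 1.37 RPKM in control (SD, n = 3 each).

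Values are RPKM, reads scaled to the length of coding sequence and to the mapped reads of the library, and the depth of each library is unknown. Each heart's title carries a code with 3 values, here called A, B and C, whose meaning is not given. Code A holds heart 1 of every group and 72 h heart 2, code B holds hearts 2 and 3 of the 12 h, 24 h and control groups, and code C holds 72 h heart 3 and 7 d hearts 2 and 3. Genes listed at 0 numbered 1463 to 1551 in hearts of code C, 1718 to 1961 in those of code B and 1707 to 1977 in those of code A. Y-linked mRNA was present in 0 hearts of the 12 h group, 2 of the 24 h group, 3 of the 72 h group, 3 of the 7 d group and 1 of the control group, of 3 in each. All 7 cardiomyocyte markers averaged at least 1 RPKM, and none of the 7 T lymphocyte or 6 neutrophil markers did. The 7 macrophage markers summed to 48.6 to 62.6 RPKM at 7 d and 65.1 to 70.6 RPKM in control. The 4 smooth muscle markers summed to 60.7 to 140 RPKM at 7 d and 96.5 to 151 RPKM in control, and the 6 adipocyte markers to 6.95 to 8.81 RPKM at 7 d and 13.2 to 20.2 RPKM in control (Lep listed at 0 in 7 of 15 hearts). The smooth muscle sums went with the title code. Over all groups they were 57.85 to 96.5 RPKM in hearts of code A and 131.5 to 179 RPKM in those of code B. In hearts of code C they were 67.35 to 140 RPKM. Endothelial marker sums were 223 to 310.5 RPKM at 7 d and 247 to 261 RPKM in control. In bulk tissue, fewer cells of a type and less RNA per cell cannot be told apart, and the part of these cell types in the values below was not tested.

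Promoter sequence was examined for the motifs that glucocorticoid and metal signals are known to use. RefSeq promoter windows (GRCm38.p6, 250 bases before to 50 bases after a start site) were found for 8 of the 10 genes, 18 windows in all. Zbtb16 was not matched, and Nr3c1 was left out of the promoter search. The receptor's palindrome was searched as GNACANNNTGTNC, which reads the same on both strands, the metal response element core as TGCACNC or TGCGCNC on either strand, and the clock-related E-box as CACGTG. The palindrome occurred in 4 of the 18 windows, those of 3 genes, Fam107a (2 nearly identical windows), Sgk1 and Mt1, against 0.475% of all 32851 promoter windows. Metal response cores occurred in 5 of the 18 windows, those of 4 genes, Mt1, Mt2, Sgk1 and Fam107a, a share near the 25.7% of all windows. At least 3 cores occurred in the windows of Mt1 and Mt2, against 1.97% of all windows. An E-box was found in 2 of the 18 windows, 1 each for Sgk1 and Fkbp5, against 7.15% of all windows, and matches of the different motifs did not overlap one another. These are matches of letters and were not tested for binding. The palindrome was in 2 of 3 Fam107a windows, 1 of 6 Sgk1 windows and the 1 Mt1 window, and these genes were called at 7 d. Tsc22d3, also called at 7 d, had 0 palindromes in 3 windows, and Zbtb16, also called, had no window. Whether the palindrome goes with the calls was not tested. The upstream 250 bases of promoters that bear a palindrome, and of Mt2 for comparison with its neighbour Mt1, are shown. Capitals mark the palindrome in the first 3 and metal response cores in Mt1 and Mt2.
Fam107a (chr14:8309780-8310029, minus strand, palindrome beginning at position -118 from the start site): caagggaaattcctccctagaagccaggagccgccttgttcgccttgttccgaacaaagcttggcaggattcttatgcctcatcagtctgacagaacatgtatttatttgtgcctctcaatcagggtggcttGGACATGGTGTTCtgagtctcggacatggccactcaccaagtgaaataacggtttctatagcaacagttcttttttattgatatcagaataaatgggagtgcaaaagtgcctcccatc
Sgk1 (chr10:21993640-21993889, plus strand, palindrome at -188): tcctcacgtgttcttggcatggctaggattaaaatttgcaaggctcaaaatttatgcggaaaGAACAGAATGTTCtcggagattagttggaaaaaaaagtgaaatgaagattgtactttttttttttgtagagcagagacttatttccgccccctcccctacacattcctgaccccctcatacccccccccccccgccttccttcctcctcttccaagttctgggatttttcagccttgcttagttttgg
Mt1 (chr8:94178839-94179088, plus strand, palindrome at -94, metal response core at -23): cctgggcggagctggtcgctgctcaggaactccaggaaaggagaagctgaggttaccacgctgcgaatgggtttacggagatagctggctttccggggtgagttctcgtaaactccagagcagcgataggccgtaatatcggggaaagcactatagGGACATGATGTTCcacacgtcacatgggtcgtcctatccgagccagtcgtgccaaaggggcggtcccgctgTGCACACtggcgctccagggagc
Mt2 (chr8:94172368-94172617, plus strand, metal response cores at -223, -128 and -50): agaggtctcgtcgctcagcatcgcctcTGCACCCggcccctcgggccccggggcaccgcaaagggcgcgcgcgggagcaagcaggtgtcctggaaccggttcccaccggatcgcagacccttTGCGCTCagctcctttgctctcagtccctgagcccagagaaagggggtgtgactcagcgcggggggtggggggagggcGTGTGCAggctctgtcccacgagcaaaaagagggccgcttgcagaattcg

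**Figure D1:**
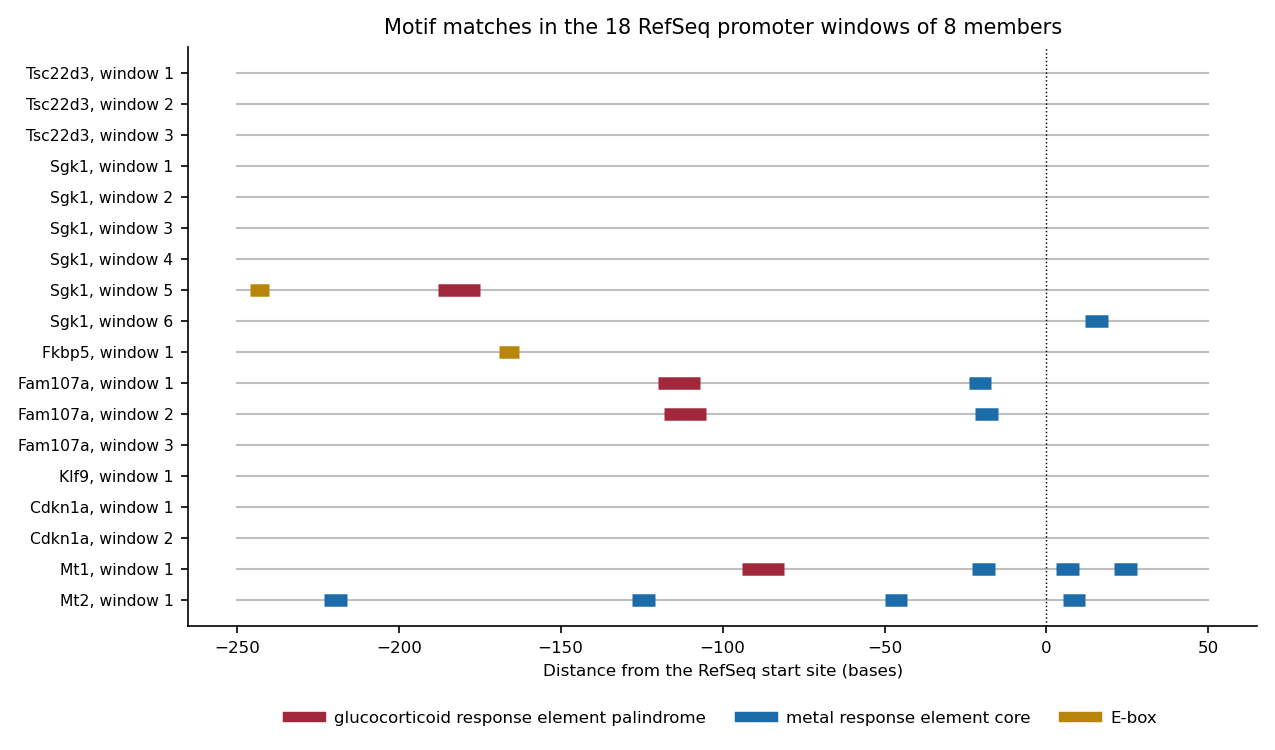
Motif matches in the 18 RefSeq promoter windows of 8 of the genes, by distance in bases from the start site (dotted line), with the receptor palindrome in red, metal response cores in blue and the E-box in gold. The palindrome lies at -118 in Fam107a, -188 in Sgk1 and -94 in Mt1, the 2 nearly identical Fam107a windows holding the same site.

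After 7 d of induction, 5 of the 10 genes were lower than in control and none was higher. Fam107a fell most, followed by Tsc22d3, Zbtb16, Sgk1 and Mt1. Changes are differences of log2(RPKM + 0.5), tested with limma across all 10557 genes and all 15 hearts, and called at a Benjamini-Hochberg adjusted p under 0.05. Of all genes tested, 4.16% were called lower and 5.83% higher at 7 d. The median change of the 10 genes was -0.81, with 8 negative and 2 positive, while that of all genes was 0.03. Some difference among the 5 groups was called for 6 of the 10 (Fam107a, Zbtb16, Tsc22d3, Mt1, Sgk1 and Mt2), against 11.7% of all genes. Because the 10 genes were chosen with earlier results known, these shares are a background and not a test of the set. The genes are given below by role.

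**Figure D2:**
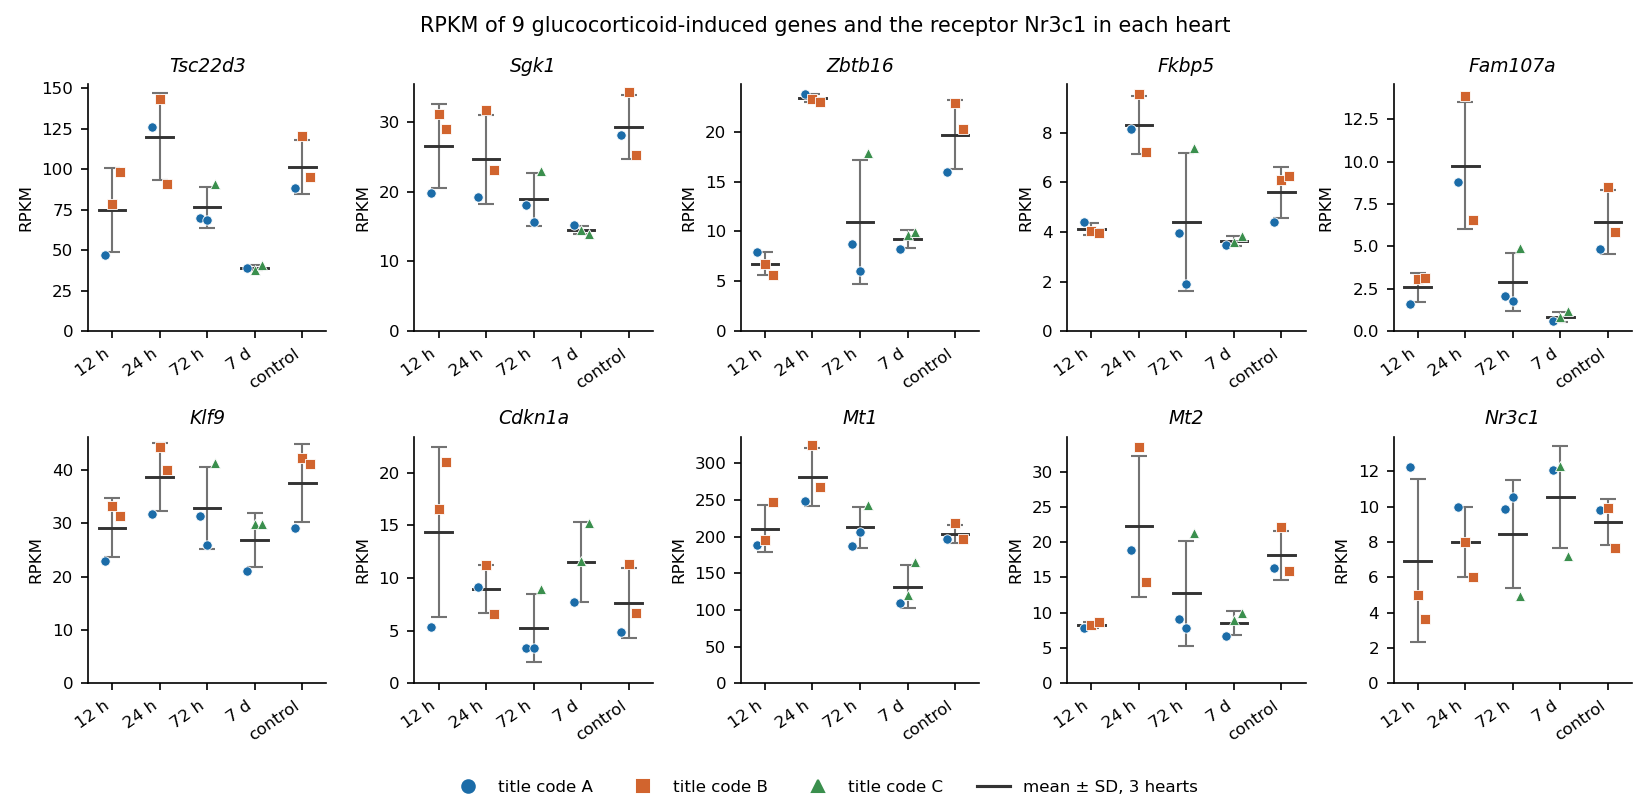
RPKM of the 10 genes in each heart, by group, with the mean and SD of 3 hearts and the title code as symbol and colour. Tsc22d3, Sgk1 and Fam107a are lowest at 7 d, Zbtb16 and Mt2 are low at both 12 h and 7 d, and Nr3c1 shows overlapping groups throughout.

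Nr3c1 (chr18:39570199-39650955 in mm9, minus strand), the receptor itself, was measured at 12.2, 5.0 and 3.63 RPKM at 12 h, 9.98, 8.01 and 5.99 RPKM at 24 h, 9.85, 10.6 and 4.93 RPKM at 72 h, 12.1, 12.3 and 7.21 RPKM at 7 d, and 9.81, 9.95 and 7.64 RPKM in control hearts 1 to 3. Every group overlapped every other. The change at 7 d was 0.17 ± 0.37 (SE), with a 95% interval of -0.62 to 0.95 (limma adjusted p in the test over 5 groups = 0.627). Within some groups its level went with the title code. At 12 h heart 1 of code A stood at 12.2 RPKM and the hearts of code B at 5.0 and 3.63 RPKM. The heart of code A was also the highest at 24 h, and at 72 h both hearts of code A were above that of code C. At 7 d heart 2 of code C, and in control heart 2 of code B, stood slightly above the heart of code A. The genes whose log2 levels tracked it most closely were Btbd7 (Pearson r = 0.99), Hipk3 (r = 0.99) and Amotl1 (r = 0.98) over the 15 hearts, a description without a test since the hearts share groups and codes.

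Fkbp5 (chr17:28536040-28654469, minus strand) encodes an Hsp90 co-chaperone that lowers the receptor's affinity for hormone and so serves in negative feedback. It stood at 4.41, 4.05 and 3.94 RPKM at 12 h, 8.16, 9.55 and 7.23 RPKM at 24 h, 3.97, 1.88 and 7.38 RPKM at 72 h, 3.46, 3.59 and 3.85 RPKM at 7 d, and 4.41, 6.11 and 6.27 RPKM in control. All 24 h hearts were above all control hearts and all 7 d hearts below them, but neither passed the test. The change was 0.54 ± 0.30 (SE) at 24 h and -0.55 ± 0.30 (SE) at 7 d, with a 95% interval of -1.18 to 0.09 at 7 d. In 24 h hearts against 12 h hearts the difference was 0.92 ± 0.30 (SE, limma adjusted p = 0.316). At 72 h, heart 3 of code C (7.38 RPKM) was apart from hearts 1 and 2 of code A (3.97 and 1.88 RPKM).

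Tsc22d3 (chrX:137074067-137135198, minus strand), also called GILZ, encodes a leucine zipper protein that carries part of the anti-inflammatory effect of glucocorticoids. Its level was 46.8, 78.6 and 98.4 RPKM at 12 h, 126, 143 and 91.0 RPKM at 24 h, 69.9, 68.5 and 91.1 RPKM at 72 h, 39.0, 37.8 and 40.7 RPKM at 7 d, and 88.5, 120.2 and 95.3 RPKM in control. The 7 d hearts were below every other heart and lay within 3 RPKM of one another. The mean was 39.2 ± 1.48 RPKM at 7 d and 101 ± 16.7 RPKM in control (SD, n = 3 each), a change of -1.35 ± 0.23 (SE, limma adjusted p = 0.00212). The call held when any single heart was left out (-1.44 to -1.22). Within code A the difference at 7 d was -1.17, and codes B and C hold no such pair. With code and Y-linked mRNA together as covariates it was -0.59 (limma adjusted p = 0.373).

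Zbtb16 (chr9:48462416-48644050, minus strand), also called PLZF, encodes a zinc finger transcriptional repressor. It was measured at 7.97, 6.72 and 5.61 RPKM at 12 h, 23.8, 23.3 and 23.0 RPKM at 24 h, 8.77, 6.05 and 17.9 RPKM at 72 h, 8.25, 9.61 and 9.96 RPKM at 7 d, and 16.0, 22.9 and 20.3 RPKM in control. Hearts at 12 h and at 7 d lay below all control hearts, and at 72 h only heart 3, of code C, reached the control range. Hearts at 24 h lay only narrowly above the control hearts (lowest 22.96 RPKM, highest control heart 22.86 RPKM). The change at 24 h was 0.25 ± 0.27 (SE, limma adjusted p = 0.805). The change was -1.47 ± 0.27 (SE) at 12 h (limma adjusted p = 0.0322) and -1.04 ± 0.27 (SE) at 7 d (limma adjusted p = 0.0257). The 7 d call was lost, with changes of -1.09 to -0.93, when any of 7 d hearts 1, 2 or 3 or control hearts 2 or 3 was left out, and the difference within code A was -0.91. With Y-linked mRNA as a covariate the 7 d change was -1.03 (limma adjusted p = 0.125).

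Klf9 (chr19:23215716-23241401, plus strand), a zinc finger transcription factor, ranged over the groups less than any other of these genes, its highest group mean being 1.43 times its lowest. Values were 22.9, 33.3 and 31.3 RPKM at 12 h, 31.7, 44.2 and 39.9 RPKM at 24 h, 31.3, 26.0 and 41.2 RPKM at 72 h, 21.1, 29.9 and 29.8 RPKM at 7 d, and 29.2, 42.3 and 41.2 RPKM in control. Within each of the 12 h, 24 h, 7 d and control groups the heart of code A was the lowest. The change at 7 d was -0.47 ± 0.21 (SE, 95% interval -0.92 to -0.02) and was not called (limma adjusted p in the test over 5 groups = 0.293). With the title code as a covariate it was -0.50 (limma adjusted p = 0.00833). With Y-linked mRNA as a covariate it was -0.67, and with code and Y-linked mRNA together -0.44 (limma adjusted p = 0.170 for each).

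Sgk1 (chr10:21601990-21719709, plus strand) encodes a serine/threonine kinase that regulates ion channels and transporters and responds to both glucocorticoids and mineralocorticoids. It stood at 19.8, 31.1 and 29.0 RPKM at 12 h, 19.2, 31.7 and 23.1 RPKM at 24 h, 18.1, 15.6 and 23.0 RPKM at 72 h, 15.2, 14.5 and 13.9 RPKM at 7 d, and 28.1, 34.4 and 25.3 RPKM in control. Unlike the other induced genes its group mean was highest in control, and hearts at 72 h and 7 d lay below all control hearts. The change was -0.62 ± 0.20 (SE) at 72 h, which was not called, and -0.97 ± 0.20 (SE) at 7 d (limma adjusted p = 0.00703). The 7 d call held when any single heart was left out (-1.07 to -0.86), the difference within code A was -0.87, and with code and Y-linked mRNA together as covariates it was -0.52 (limma adjusted p = 0.395).

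Fam107a (chr14:9128788-9150537, minus strand), whose product binds actin and rises with stress in mouse brain, had the widest range, its highest group mean being 11.4 times its lowest. Its level was 1.61, 3.06 and 3.13 RPKM at 12 h, 8.79, 13.9 and 6.59 RPKM at 24 h, 2.08, 1.78 and 4.90 RPKM at 72 h, 0.57, 0.84 and 1.16 RPKM at 7 d, and 4.86, 8.54 and 5.88 RPKM in control. The 7 d hearts were below every other heart. The mean was 0.857 ± 0.295 RPKM at 7 d and 6.43 ± 1.90 RPKM in control (SD, n = 3 each), and the change was -2.34 ± 0.34 (SE, limma adjusted p = 0.000714), a value that the pseudocount of 0.5 draws towards 0 at such low levels. The difference within code A was -2.32, and the call held when any single heart was left out (-2.51 to -2.13) and with code and Y-linked mRNA as covariates. At 12 h the change was -1.17 ± 0.34 (SE, limma adjusted p = 0.191), with all 12 h hearts below all control hearts.

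Cdkn1a (chr17:29227924-29237667, plus strand) encodes p21, an inhibitor of cyclin-dependent kinases that is induced by p53 as well as by glucocorticoids. It was measured at 5.38, 16.6 and 21.1 RPKM at 12 h, 9.13, 11.2 and 6.58 RPKM at 24 h, 3.38, 3.38 and 9.0 RPKM at 72 h, 7.72, 11.6 and 15.3 RPKM at 7 d, and 4.88, 11.3 and 6.66 RPKM in control. In the 12 h, 72 h, 7 d and control groups the lowest heart or hearts were of code A. All groups overlapped control, and the change at 7 d was 0.59 ± 0.47 (SE, 95% interval -0.41 to 1.59), 1 of 2 positive values among the 10 genes at 7 d, the other being that of Nr3c1. With code and Y-linked mRNA together as covariates it was 1.68 (limma adjusted p = 0.0627).

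Mt1 (chr8:96702989-96704225, plus strand) and Mt2 (chr8:96696518-96697467, plus strand) are neighbouring genes for metallothioneins, small zinc- and copper-binding proteins induced by metals through the factor Mtf1 and also by glucocorticoids. Their coding sequences shared 0 of 151 windows of 36 bases, the shortest read length used. Mt1 stood at 189, 196 and 247 RPKM at 12 h, 249, 325 and 268 RPKM at 24 h, 188, 206 and 244 RPKM at 72 h, 109, 121 and 165 RPKM at 7 d, and 197, 218 and 196 RPKM in control. Its 24 h hearts lay above all control hearts and its 7 d hearts below them. The change was 0.45 ± 0.16 (SE) at 24 h, which was not called, and -0.65 ± 0.16 (SE) at 7 d (limma adjusted p = 0.0178). The 7 d call was lost when 7 d heart 1 (-0.53), 7 d heart 2 (-0.60) or control heart 2 (-0.60) was left out. With Y-linked mRNA as a covariate the change was -0.69 (limma adjusted p = 0.0758), and within code A it was -0.84.

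Mt2 was measured at 7.79, 8.27 and 8.62 RPKM at 12 h, 18.9, 33.5 and 14.3 RPKM at 24 h, 9.17, 7.78 and 21.3 RPKM at 72 h, 6.66, 8.96 and 9.97 RPKM at 7 d, and 16.3, 22.1 and 15.9 RPKM in control. Hearts at 12 h and at 7 d lay below all control hearts and 72 h heart 3, of code C, again stood apart from hearts 1 and 2. The change was -1.08 ± 0.33 (SE) at 12 h (limma adjusted p = 0.207) and -1.05 ± 0.33 (SE) at 7 d (limma adjusted p = 0.0598). Neither was called as deposited, while at 7 d each of 3 scalings between hearts gave a call (-1.09 to -1.06).

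**Figure D3:**
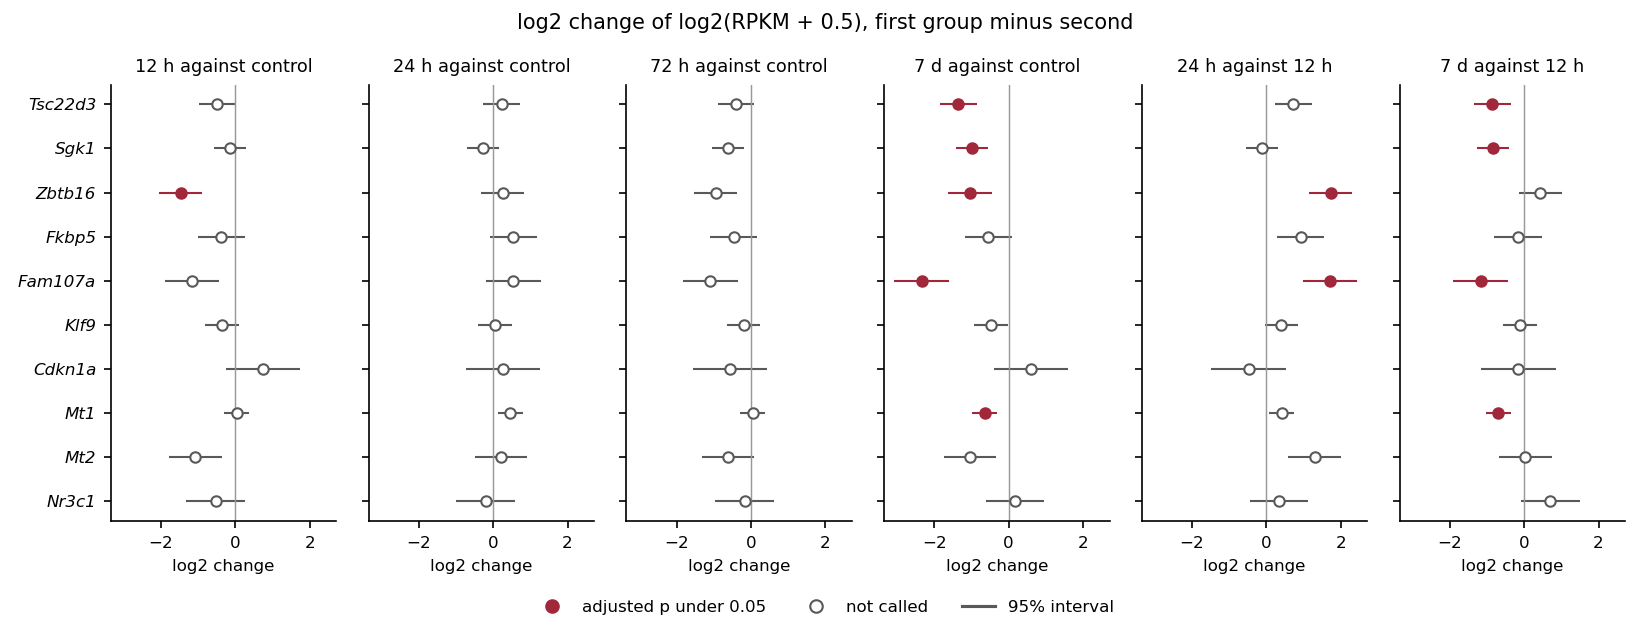
log2 changes of the 10 genes in 6 comparisons, first group minus second, with 95% intervals from limma (filled red points are called). At 7 d against control 5 genes are called lower, and at 24 h against 12 h Zbtb16 (1.73) and Fam107a (1.71) are called higher.

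At 12 h against control only Zbtb16 was called among the 10, lower, against 0.284% of all genes called lower and 0.104% called higher. The median change of the 10 genes was -0.44 (2 positive, 8 negative) and that of all genes -0.10, and 3 of the 10 had an unadjusted p under 0.05. The Zbtb16 call was narrow. It was lost in 8 of 15 fits that left out a heart, namely 12 h hearts 2 and 3, control hearts 2 and 3, 24 h hearts 2 and 3, 72 h heart 1 and 7 d heart 2, in which the change was -1.48 to -1.36, and with Y-linked mRNA as a covariate (-1.48, limma adjusted p = 0.0685). It was also lost when genes with a mean under 1 RPKM were kept in (limma adjusted p = 0.054). Within codes A and B the change was -0.96 and -1.73. The change of Tsc22d3 at 12 h was -0.49 ± 0.23 (SE, limma adjusted p = 0.410).

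At 24 h against control limma called 0 of the 10 genes (1 with an unadjusted p under 0.05, Mt1), with 0.0379% of all genes called higher and 0.0568% lower. Their median change was 0.24, with 8 positive and 2 negative, and that of all genes was -0.10. At 72 h against control limma again called 0 of the 10 (3 with an unadjusted p under 0.05), with 0.237% of all genes called higher and 0.36% lower. The median was -0.51 (1 positive, 9 negative) and that of all genes -0.08. The 72 h group was split by title code. Zbtb16 changed by -0.95 ± 0.27 (SE) and Fam107a by -1.09 ± 0.34 (SE), and without 72 h heart 3, of code C, these were -1.36 (limma adjusted p = 0.0068) and -1.48 (limma adjusted p = 0.0349), both called. Without 72 h heart 2 they were -0.62 and -0.86, and with code and Y-linked mRNA as covariates they were -1.21 (limma adjusted p = 0.267) and -0.47 (limma adjusted p = 0.597). With upper-quartile scaling the shares of all genes called higher and lower were 0.189% and 0.313% for 12 h, 0.0663% and 0.0379% for 24 h, 0.512% and 0.379% for 72 h, and 5.57% and 6.55% for 7 d.

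Comparing 24 h with 12 h hearts, both of which carry the transgene and come from codes A and B in the same proportion, 2 of the 10 genes were higher and none was lower, against 0.341% and 0.218% of all genes. Zbtb16 averaged 23.3 ± 0.412 RPKM at 24 h and 6.77 ± 1.18 RPKM at 12 h (SD, n = 3 each), a difference of 1.73 ± 0.27 (SE, limma adjusted p = 0.00773). It was 1.52 within code A and 1.83 within code B, and it stayed called without any single heart (1.61 to 1.84). Fam107a averaged 9.76 ± 3.75 RPKM at 24 h and 2.60 ± 0.858 RPKM at 12 h (SD, n = 3 each), a difference of 1.71 ± 0.34 (SE, limma adjusted p = 0.0437). That call was lost in 10 of 15 fits without a heart (differences of 1.43 to 1.83; 12 h hearts 1 and 2, 24 h hearts 1 and 2, 72 h heart 1, 7 d hearts 2 and 3, and each control heart). Both calls were lost with Y-linked mRNA as a covariate, the differences then being 1.74 for each gene (limma adjusted p = 0.0677 for Zbtb16 and 0.192 for Fam107a). Both were kept with the title code as a covariate, and with code and Y-linked mRNA together, where Zbtb16 differed by 1.71 (limma adjusted p = 0.0142), Fam107a by 2.07 (limma adjusted p = 0.00584) and Tsc22d3 was also called (1.13, limma adjusted p = 0.0366). The differences were 1.29 ± 0.33 (SE, limma adjusted p = 0.136) for Mt2, 0.72 ± 0.23 (SE, limma adjusted p = 0.305) for Tsc22d3 and 0.41 ± 0.16 (SE) for Mt1, none of them called.

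Comparing 7 d with 12 h hearts, 4 of the 10 genes were lower and none was higher, against 3.88% and 11.8% of all genes. With upper-quartile scaling, which set the median difference of all genes to -0.01 in place of 0.13, these shares were 7.98% and 6.73%, and 4 of the 10 were again called. Tsc22d3 differed by -0.86 ± 0.23 (SE, limma adjusted p = 0.0227), Sgk1 by -0.83 ± 0.20 (SE, limma adjusted p = 0.0139), Fam107a by -1.17 ± 0.34 (SE, limma adjusted p = 0.033) and Mt1 by -0.69 ± 0.16 (SE, limma adjusted p = 0.00993). Zbtb16, at 9.27 ± 0.903 RPKM at 7 d and 6.77 ± 1.18 RPKM at 12 h (SD, n = 3 each), and Mt2, at 8.53 ± 1.70 RPKM at 7 d and 8.23 ± 0.417 RPKM at 12 h (SD, n = 3 each), did not share this fall. Y-linked mRNA was in all 7 d hearts and in no 12 h heart, and with it as a covariate 0 of the 10 genes were called by limma in this comparison (Tsc22d3 -0.71, Sgk1 -0.92, Fam107a -1.12 and Mt1 -0.75), so its part and that of time cannot be told apart. The Tsc22d3 call was lost without 12 h hearts 2 or 3 or 7 d hearts 2 or 3 (-0.88 to -0.63) and with the title code as a covariate (-0.76, limma adjusted p = 0.0836), that of Sgk1 without 12 h hearts 2 or 3 (-0.75 to -0.70), and that of Fam107a without 12 h hearts 2 or 3 or 7 d hearts 1 or 2 (-1.18 to -1.01). Mt1 kept its call without any single heart. Nr3c1 differed by 0.70 ± 0.37 (SE, limma adjusted p = 0.213), and by 1.17 (limma adjusted p = 0.0164) without 12 h heart 1, while within code A it was -0.015.

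The order of the group means was the same in Tsc22d3, Fkbp5, Fam107a and Klf9, highest at 24 h, then control, 72 h, 12 h and 7 d. Zbtb16 and Mt2 had 24 h, control and 72 h in the same places but 12 h below 7 d. Neighbours in these orders often overlapped: for Fam107a, 24 h and control overlapped, as did 72 h and 12 h, whereas 7 d lay apart from 12 h. For Tsc22d3, 24 h, control, 72 h and 12 h each overlapped the next, and 7 d lay apart from 12 h. For Zbtb16, 24 h lay narrowly apart from control and 7 d apart from 12 h, and 72 h overlapped both control and 7 d. Over the 15 hearts the log2 levels of Tsc22d3 and Fam107a had r = 0.95 and those of Zbtb16 and Mt2 r = 0.89, while Nr3c1 had r between -0.56 and 0.04 with the other 9 genes. Cdkn1a had r between -0.04 and 0.30 with the 8 induced genes.

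Outside the 10 genes, the levels closest to Fam107a were those of Rhobtb1 (r = 0.96), Rgcc (r = 0.96) and Podn (r = 0.95), and those closest to Tsc22d3 were Rgcc (r = 0.93), Podn (r = 0.91) and Serpina1d (r = 0.91), so that Rgcc and Podn stood near both. Zbtb16 and Mt2 shared Slc38a3, a glutamine transporter, and Klf15, a cardiac metabolic transcription factor and a glucocorticoid target itself (r = 0.93 and 0.92 with each), with Angptl7 (r = 0.90) next for Zbtb16 and Fam117b (r = 0.90) next for Mt2. Sgk1 was closest to Myh7, the slow myosin heavy chain (r = 0.94), Slc3a2 (r = 0.93) and Elmo3 (r = 0.92). Fkbp5 was closest to Slc43a3, Sult1a1 (r = 0.91 each) and Snrk (r = 0.90), and Klf9 to Plekhf1, Htra3 and Cebpb (r = 0.94 each). Cdkn1a was closest to Acbd4 (r = 0.94), Rccd1 (r = 0.92) and Xbp1 (r = 0.91), and Mt1 to Acrbp (r = 0.91) and Sncg (r = 0.90). These correlations describe 15 hearts that share groups and title codes.

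Clock gene mRNAs, given here beside Zbtb16 and Mt2, also set the 12 h and 7 d hearts apart. Arntl, the core clock activator, was at 7.18, 6.41 and 5.77 RPKM at 12 h, 1.5, 0.65 and 0.68 RPKM at 24 h, 1.19, 1.15 and 1.01 RPKM at 72 h, 4.54, 5.02 and 5.70 RPKM at 7 d, and 0.83, 0.53 and 0.51 RPKM in control. The 12 h and 7 d hearts, in which Zbtb16 was low, were those in which Arntl was high, while in the 72 h hearts Arntl was low both where Zbtb16 was low (hearts 1 and 2) and where it was high (heart 3). Per2, a clock repressor that glucocorticoids can induce, averaged 1.35 ± 0.389 RPKM at 12 h, 10.04 ± 2.35 RPKM at 24 h, 5.26 ± 1.60 RPKM at 72 h, 2.41 ± 0.0819 RPKM at 7 d and 7.68 ± 1.22 RPKM in control (SD, n = 3 each). Of 17 clock genes tested, 2 were called higher and 5 lower at 12 h (0.104% and 0.284% of all genes), and 3 higher and 6 lower at 7 d (5.83% and 4.16% of all genes). The 24 h hearts had 4 higher and 1 lower than those of 12 h (0.341% and 0.218% of all genes), and the 7 d hearts had 5 higher and none lower than those of 12 h (11.8% and 3.88% of all genes). At 24 h and at 72 h against control limma called 0 of the 17, with 5 and 4 of them at an unadjusted p under 0.05. The changes at 7 d were 2.32 ± 0.19 (SE) for Arntl, -1.48 ± 0.21 (SE) for Per2, -0.95 ± 0.15 (SE) for Per3 and -0.85 ± 0.13 (SE) for Tef, a clock output factor. Over the 15 hearts the log2 levels of Per1 had r = 0.91 with Tsc22d3, 0.87 with Fam107a, 0.84 with Klf9 and 0.81 with Sgk1. They had r = 0.77 with Mt1, 0.74 with Mt2, 0.58 with Fkbp5 and with Zbtb16, 0.05 with Cdkn1a and -0.52 with Nr3c1. The part of the clock in the values of Zbtb16, Mt2 and the other genes was not tested.

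**Figure D4:**
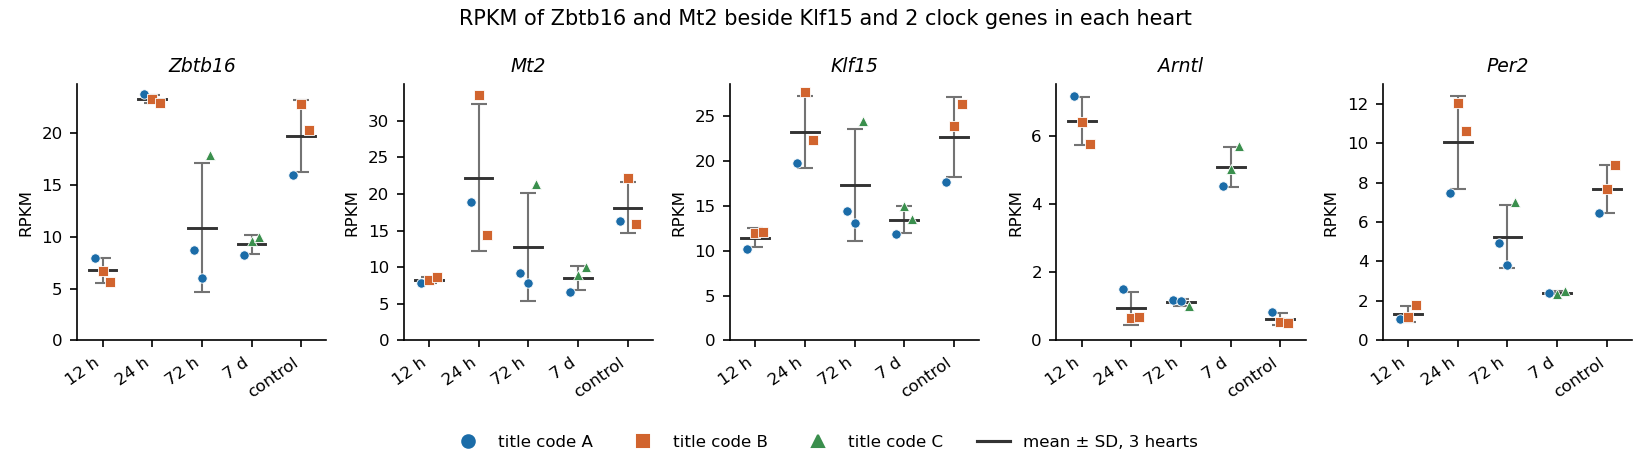
RPKM of Zbtb16 and Mt2 in each heart beside Klf15, Arntl and Per2, with the mean and SD of 3 hearts per group and the title code as symbol and colour. Arntl is at 4.54 RPKM or more in every 12 h and 7 d heart and at 1.5 RPKM or less in every other heart, and Zbtb16 is below 10 RPKM in the same hearts and in 72 h hearts 1 and 2.

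Of a list of 35 other known glucocorticoid targets, also chosen with earlier results known, 32 could be tested. At 7 d against control, 5 were lower and 1 higher (4.16% and 5.83% of all genes), with a median of -0.50, against 0.03 for all genes. Those lower with the smallest adjusted p were Per1, a clock gene with a glucocorticoid response element (-2.22 ± 0.43, SE), Errfi1, an inhibitor of the EGF receptor (-1.05 ± 0.26, SE), and Ddit4, an inhibitor of mTORC1 (-1.61 ± 0.46, SE). The gene that was higher was Trim63, a muscle ubiquitin ligase that glucocorticoids induce in atrophy (0.99 ± 0.12, SE, limma adjusted p = 0.000215), which also was the single listed target called at 72 h (0.71 ± 0.12, SE, limma adjusted p = 0.0205). Per1 stood at 4.19, 4.67 and 5.20 RPKM at 7 d and at 20.2, 26.2 and 24.6 RPKM in control, so its groups did not overlap. At 7 d against 12 h, 3 of the 32 were higher and 4 lower, with a median of -0.18, against 0.13 for all genes, of which 11.8% were called higher and 3.88% lower. The share higher was near that background. The lower ones included Pdk4, a kinase that limits glucose oxidation (-2.28 ± 0.33, SE), Errfi1 (-1.61 ± 0.26, SE) and Dusp1, a MAP kinase phosphatase (-1.32 ± 0.25, SE). Trim63 was among the higher ones (1.01 ± 0.12, SE). At 12 h and 24 h against control, and at 24 h against 12 h, limma called 0 of the 32, with 9, 2 and 11 at an unadjusted p under 0.05 and medians of -0.28, 0.08 and 0.31.

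**Figure D5:**
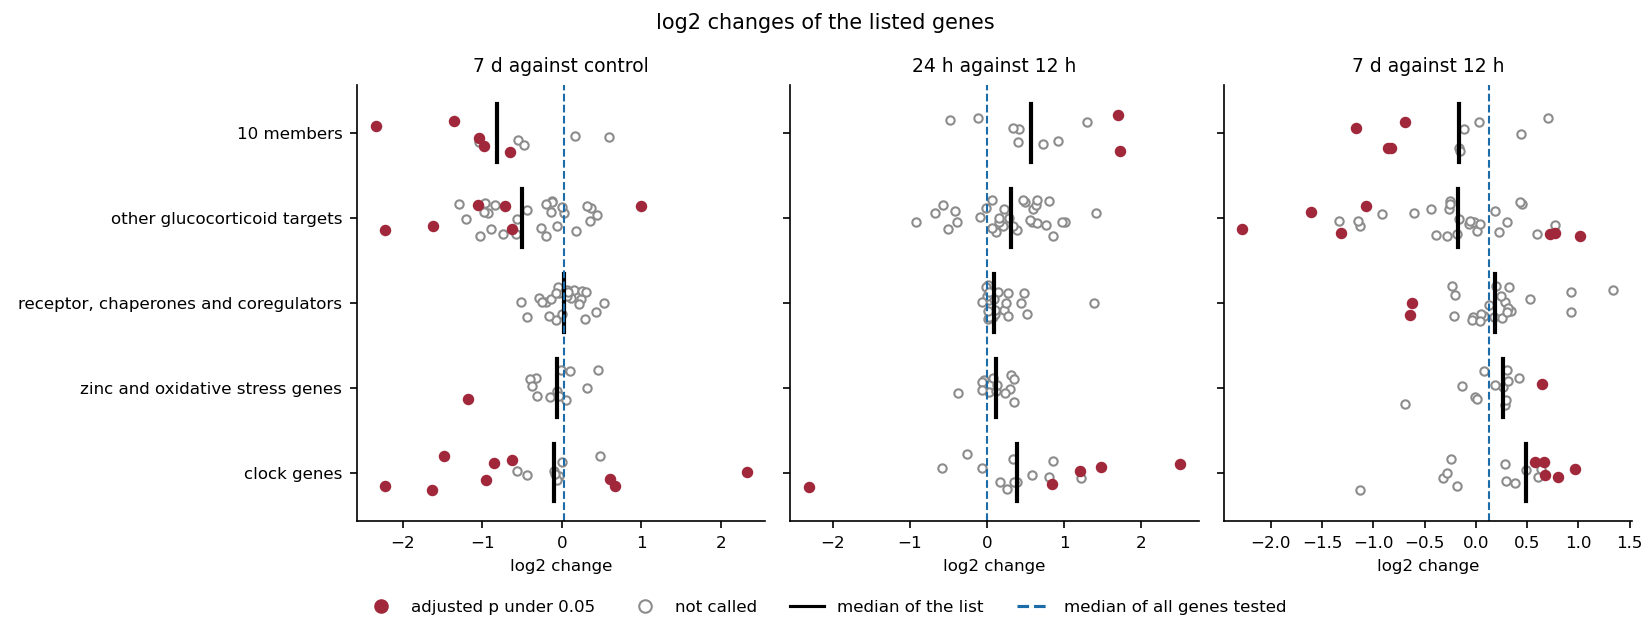
log2 changes of the 10 genes, of the other glucocorticoid targets and of 3 more lists in 3 comparisons (each point is a gene, called genes in red, black bars are list medians and the dashed line is the median of all genes tested). At 7 d the medians are -0.81 for the 10 genes and -0.50 for the other targets, and 0.03 for receptor chaperones and coregulators.

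Genes that hold or serve the receptor were tested as a further list. For this and the next 3 lists the background is 5.83% of all genes called higher and 4.16% lower at 7 d against control, and 11.8% higher and 3.88% lower at 7 d against 12 h. Of 24 chaperones, coregulators and steroid-handling enzymes, limma called 0 in any comparison with control (2 in the 12 h, 4 in the 24 h, 1 in the 72 h and 4 in the 7 d comparison at an unadjusted p under 0.05) or at 24 h against 12 h (4 at that level). At 7 d against 12 h the chaperones Dnaja1 (-0.65 ± 0.20, SE) and Hsp90aa1 (-0.62 ± 0.19, SE) were lower. Of 13 genes for zinc handling and oxidative stress, set beside Mt1 and Mt2, the metallothionein Mt3 was lower at 7 d against control (-1.18 ± 0.25, SE, limma adjusted p = 0.00921) and the zinc importer Slc39a14 was higher at 7 d against 12 h (0.65 ± 0.16, SE). In the other 4 comparisons limma called 0 of the 13 (5, 2 and 3 for 12 h, 24 h and 72 h against control and 0 for 24 h against 12 h at an unadjusted p under 0.05). Of 16 tested p53 targets and kinase inhibitors, set beside Cdkn1a, Zmat3 (0.63 ± 0.15, SE) and Gadd45a (0.54 ± 0.15, SE) were higher and Btg2 (-0.85 ± 0.27, SE) lower at 7 d against 12 h, and limma called 0 in the other comparisons (0, 2, 1 and 3 for 12 h, 24 h, 72 h and 7 d against control and 2 for 24 h against 12 h at an unadjusted p under 0.05). Of 11 tested Kruppel-like factors, set beside Klf9, Klf6 (-0.58 ± 0.15, SE) and Klf15 (-0.72 ± 0.21, SE) were lower at 7 d against control, and Klf2 (-1.55 ± 0.46, SE) and Klf4 (-1.0 ± 0.32, SE) at 7 d against 12 h. In the other 4 comparisons limma called 0 of the 11, with 1, 1 and 2 for 12 h, 24 h and 72 h against control and 3 for 24 h against 12 h at an unadjusted p under 0.05.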

How the data were processed

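Ventricular poly(A)+ RNA of 15 hearts was measured by strand-specific paired-end RNA-seq with reads of 36 to 40 bases. The authors mapped reads to mm9 with Bowtie and TopHat (per the methods and the submitters' processing notes, without versions), kept uniquely mapping reads, and deposited RPKM, reads per kilobase of constitutive RefSeq coding sequence, scaled to the nonribosomal, nonmitochondrial reads of the library. Values have 2 decimals and no read totals, so depth and counting error are unknown and precision rests on how far hearts of a group differ. Identical libraries were looked for, and 0 pairs were found. Groups came from the source names and time points in the labels, and hearts 1 to 3 of a group follow the order of the labels. Of the 16199 genes, 16146 matched a current NCBI record, used for names.

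Genes averaging 1 RPKM or more (10557) were modelled on the log2(RPKM + 0.5) scale in limma 3.58.1 (R 4.3.3), using its intensity trend and a single model of the 15 hearts, with Benjamini-Hochberg adjustment over all genes. The 6 comparisons were each time against control, 24 h against 12 h and 7 d against 12 h, with a moderated F test over the 5 groups. The fit was tested on simulated data. The alternatives were pseudocounts of 0.1 and 1, no filter or a mean of at least 5 RPKM, 3 scalings, the title code or Y-linked mRNA as covariates, the compared groups alone, library quality weights and leaving out each heart. The exact permutation test of 3 against 3 hearts cannot go below 0.1 and was not used for calls. Statements that all hearts of a group lay above or below another group describe values. The share of all genes so separated was not counted.

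The members and gene lists were chosen with earlier results of these data known. All members are named, up to 4 called genes per list and comparison, and the 3 genes nearest each member by Pearson r, of which 1 is not reported here. Gene positions are from GENCODE vM1 (mm9), in which no exon of the 10 genes overlaps an exon of another gene. Promoters are from RefSeq (GRCm38.p6), and plots used matplotlib 3.10.9 in Python 3.11.15.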

Additional observations from a re-analysis of the deposited data

Results flagged for a closer look

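For several of the genes a direct test of 1 time point against another gave a call. At 24 h against 12 h the difference was 1.73 for Zbtb16 and 1.71 for Fam107a, each higher in 3 of 3 hearts at 24 h than in any 12 h heart (limma adjusted p = 0.00773 and 0.0437). At 7 d against 12 h it was -0.86 for Tsc22d3, -0.83 for Sgk1, -1.17 for Fam107a and -0.69 for Mt1, each lower in 3 of 3 hearts at 7 d than in any 12 h heart (limma adjusted p between 0.00993 and 0.033). With Y-linked mRNA as a covariate none of the 6 differences was called (limma adjusted p between 0.0677 and 0.279), and at 7 d against 12 h its part and that of time cannot be told apart. The share of all genes with every heart of 1 time beyond every heart of the other was not counted. Groups of 3 hearts were too small for a test of single outlying hearts.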

How the results depend on the processing

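No paired analysis was possible because the labels carry no replicate numbers. The title code, which groups share in unequal numbers of hearts, was used as a covariate instead. Of the 10 genes, the numbers called as deposited were 1 (12 h), 0 (24 h), 0 (72 h) and 5 (7 d) against control, 2 at 24 h against 12 h, 4 at 7 d against 12 h and 6 over the 5 groups. Leaving out each heart gave 0 to 1 for 12 h, 0 to 0 for 24 h, 0 to 2 for 72 h and 3 to 6 for 7 d, 1 to 3 at 24 h against 12 h, 1 to 5 at 7 d against 12 h and 4 to 7 over the groups. Of all genes tested, these fits called 9 to 180 for 12 h, 1 to 28 for 24 h and 4 to 269 for 72 h. They called 532 to 1266 for 7 d, 27 to 84 at 24 h against 12 h and 824 to 2326 at 7 d against 12 h. At 24 h against 12 h the number was 1 with a pseudocount of 0.1, with no filter, with a mean of at least 5 RPKM (which leaves Fam107a out) and with the 2 groups alone. At 12 h it was 0 with no filter. With the title code as a covariate 4 were called at 12 h, 1 at 72 h, 7 at 7 d (Klf9 and Mt2 added), 4 at 24 h against 12 h and 3 at 7 d against 12 h (without Tsc22d3). With Y-linked mRNA as a covariate 0 were called at 12 h, 3 at 7 d, 0 at 24 h against 12 h and 0 at 7 d against 12 h. With both, 5 were called at 12 h, 1 at 7 d (Fam107a, -1.98), 3 at 24 h against 12 h and 0 at 7 d against 12 h. The 2 groups alone gave 2 at 7 d against 12 h. Library quality weights, whose estimation stopped before convergence, gave 6 at 12 h, 8 at 72 h, 8 at 7 d, 5 at 24 h against 12 h and 10 over the groups. For the pseudocounts, filters, covariates, groups alone and weights, the numbers of all genes called are not listed here. Those counts of the 10 genes thus have no background beside them. The 3 scalings gave 6 at 7 d, Mt2 being added, and set the median of all genes at 24 h between 0.00 and 0.01 in place of -0.10. With these scalings 5.57% to 6.43% of all genes were called higher at 7 d and 5.53% to 6.55% lower. Where these numbers differ, the cause was not tested. Signs turned for Zbtb16 at 7 d against 12 h (-0.048 with the code, -0.086 with code and Y-linked mRNA). They also turned for Tsc22d3 in the same comparison (0.11 with both) and for Nr3c1 at 7 d (-0.021 with both). These stand among 31 changes of the 10 genes kept for report. Other changes of the 10 were refitted too, and their signs are not listed here. For genes outside the 10, single changes under these alternatives are not listed. Unknown depth means that low levels such as those of Fam107a at 7 d have no counting error attached.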
